A study of Mus musculus with 6 samples.

Results

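Intergenic peaks more than 100 kb from a transcription start site are described here, from chromatin immunoprecipitation and sequencing (ChIP-seq) of KLF3 and its mutants in murine embryonic fibroblasts (MEFs). A row of the table of all peaks was taken when the annotation was intergenic and the absolute distance to the nearest RefSeq start site was above 100 kb. This gave 4206 of 22188 peaks (19.0%), which is 43.4% of the 9686 intergenic peaks. Klf3-/- MEFs of the C57BL/6 strain were transduced with a retrovirus and rescued with V5-tagged KLF3, with ΔDL, or with DBD. ΔDL carries a mutation in the N-terminal motif that contacts the corepressor CtBP. DBD keeps the zinc fingers and a putative nuclear localization signal and lacks the rest of the N-terminal part. All cells lacked endogenous KLF3, the transgenes were expressed from the viral vector, and cells of each construct were single clones selected with puromycin, so that construct and clone cannot be told apart. Each construct was precipitated with an anti-V5 antibody in 2 replicates, each with a paired input.

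KLF3 belongs to the SP/KLF family of transcription factors, whose C-terminal zinc fingers bind CACCC boxes and related GC-rich sequences. Its N-terminal part recruits CtBP, which brings chromatin-modifying enzymes that repress transcription. Binding sites far from any promoter include enhancers, which in fibroblasts often hold AP-1, RUNX and TEAD sites, but a peak in a distant region is not by itself an enhancer. The nearest gene is only a label for such a peak, since distal elements can act on other genes.

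The sequences at the centres of 10 peaks show what these sites look like. Shown are 4 of the 6 peaks highest for KLF3, the 3 with the largest rise in ΔDL and the 3 highest for DBD, named by the nearest gene, as 100 bp of the upper strand of mm9. Capitals mark matches on either strand to words of the KLF or the AP-1 type. The KLF words were the CACCC box CCACCC, its GC-box relative CCGCCC, and the variants of each that begin with A, namely ACACCC for the former and ACGCCC for the latter. The AP-1 words were TGACTCA and its reverse complement TGAGTCA.
A1bg: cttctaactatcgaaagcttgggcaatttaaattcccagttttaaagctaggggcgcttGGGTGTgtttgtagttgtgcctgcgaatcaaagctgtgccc
Leprel1: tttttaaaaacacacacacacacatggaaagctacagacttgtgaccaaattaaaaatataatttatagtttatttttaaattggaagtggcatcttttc
B930025P03Rik: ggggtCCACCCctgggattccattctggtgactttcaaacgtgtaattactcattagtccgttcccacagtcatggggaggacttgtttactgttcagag
Gm8633: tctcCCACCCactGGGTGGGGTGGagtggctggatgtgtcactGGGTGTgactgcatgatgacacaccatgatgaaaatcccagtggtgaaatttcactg
1700101O22Rik: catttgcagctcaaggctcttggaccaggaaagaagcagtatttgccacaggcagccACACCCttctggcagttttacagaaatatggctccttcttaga
Foxa2: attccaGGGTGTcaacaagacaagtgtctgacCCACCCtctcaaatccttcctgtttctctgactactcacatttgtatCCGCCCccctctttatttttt
Npr3: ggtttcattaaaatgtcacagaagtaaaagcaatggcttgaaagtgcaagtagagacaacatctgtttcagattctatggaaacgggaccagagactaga
Pxmp3: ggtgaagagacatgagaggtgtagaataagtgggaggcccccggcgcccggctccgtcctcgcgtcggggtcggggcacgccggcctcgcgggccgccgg
Arap2: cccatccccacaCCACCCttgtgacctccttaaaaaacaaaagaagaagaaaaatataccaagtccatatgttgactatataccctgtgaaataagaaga
Fam181b: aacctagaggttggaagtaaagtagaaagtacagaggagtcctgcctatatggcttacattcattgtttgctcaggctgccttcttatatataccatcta
These came from, in order, chr15:60989284-60989383, chr16:26211445-26211544, chr8:10665063-10665162, chr10:97971246-97971345, chr12:7643592-7643691, chr2:147753499-147753598, chr15:11700815-11700914, chr3:5860620-5860719, chr5:62954818-62954917 and chr7:101305507-101305606. The G+C content of these windows was 46.0, 27.0, 49.0 and 53.0% at the KLF3 peaks. It was 48.0, 45.0 and 39.0% at the ΔDL peaks and 74.0, 38.0 and 40.0% at the DBD peaks. KLF words were present in the windows near A1bg, B930025P03Rik, Gm8633, 1700101O22Rik, Foxa2 and Arap2. The windows near Leprel1, Npr3, Pxmp3 and Fam181b held neither a KLF nor an AP-1 word.

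Members lay a median of 292 kb from a start site (quartiles 169 and 550 kb), and 357 of them (8.49%) were more than 1000 kb away. Of the 4206 peaks, 2152 lay upstream and 2054 downstream of the nearest gene. They fell next to 1528 gene names, of which 644 had a single member. Only 212 (5.04%) overlapped a gene of GENCODE vM1, an annotation of the same genome build, and 1794 (42.7%) had a GENCODE transcript start within 100 kb. The distance limit is therefore that of the authors' RefSeq annotation. The peak just inside it lay 100013 bp upstream of Agr3 and the peak just outside 99994 bp upstream of 4921513I03Rik. The former had heights of 107, 272 and 133 normalized tags for KLF3, ΔDL and DBD, and the latter 315, 278 and 76.1. Chromosome 3 held the most members, 376, or 23.6 per 10 Mb, against 8.59 per 10 Mb on chromosome 7.

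Peak height was the log2 of the tags in 400 bp, scaled by the authors to 100 M tags with both replicates combined, so that no replicate error can be given for it. Uniform coverage of the genome would give 15.1 normalized tags. At the far peaks KLF3 had a median height of 6.52, ΔDL of 7.47 and DBD of 6.74, or 91.8, 177 and 107 normalized tags. At the 4452 promoter peaks these medians were 8.32, 7.62 and 5.41. Between promoters and far peaks the KLF3 median was thus lower, the DBD median higher and the ΔDL median similar. The table joins peaks called for any construct. Of promoter peaks, 95.7% were listed for KLF3 and 1.44% for DBD. Of far peaks, 37.7% were listed for KLF3 and 40.7% for DBD. The share with a ΔDL listing was 22.9% at promoters and 82.3% at far peaks, where it was the largest of the constructs. The part of this listing in the medians was not tested. The order of KLF3 and DBD at far peaks depended on the scaling: with heights shifted as described in the next comparison, the far medians of KLF3, ΔDL and DBD were 6.52, 6.41 and 6.32, and the promoter medians 8.32, 6.56 and 4.99. The far-peak medians of KLF3, ΔDL and DBD stood 6.09, 11.8 and 7.09 times above uniform coverage.

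**Figure D1:**
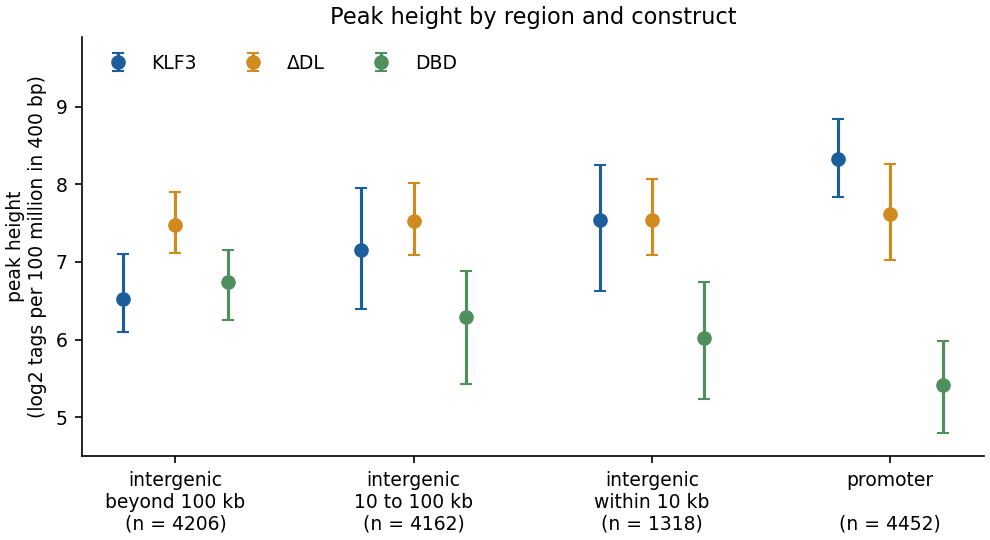
Peak height in log2 tags per 100 M in 400 bp, by region, for KLF3, ΔDL and DBD. Points are medians and bars are quartiles over peaks, not replicate errors. The KLF3 median falls from 8.32 at promoters to 6.52 beyond 100 kb, and that of DBD rises from 5.41 to 6.74. Medians run over peaks called for any construct, and the shares listed for each construct differ between regions.

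Against KLF3, ΔDL was at least 2-fold lower at 114 far peaks (2.71%), beside 14.8% of all peaks, and at least 2-fold higher at 2216 (52.7%), beside 28.8%. DBD was at least 2-fold lower at 704 far peaks (16.7%), beside 52.6% of all peaks, and at least 2-fold higher at 281 (6.68%), beside 3.27%. The median log2 difference from KLF3 was 1.02 for ΔDL and 0.39 for DBD. These values rest on the authors' scaling. When heights were shifted so that the 2334 peaks listed for all 3 constructs had equal medians, by -1.06 for ΔDL and -0.42 for DBD on the log2 scale, ΔDL was lower at 497 far peaks (11.8%) and higher at 29 (0.689%). The same shares of all peaks were 42.9% and 0.397%. DBD was then lower at 734 far peaks (17.5%) and higher at 35 (0.832%), beside 53.7% and 0.428% of all peaks. The medians turned to -0.04 for ΔDL and -0.03 for DBD. The DBD values also depended on height. Among the 986 far peaks with a KLF3 or DBD height of at least 7.5, the median was -1.36 and DBD was lower at 513 (52.0%). The rises in both mutants therefore depended on the scaling. Of the 2334 peaks used for the shift, 785 were themselves far peaks. Their median differences before the shift were 1.06 for ΔDL and 0.45 for DBD, so that the shifted far medians are in part set by this choice. The shift also assumes that the peaks shared by all 3 constructs did not change, which was not tested. Far peaks were less often lower in either mutant than all peaks were under both scalings of the whole table. These shares also depend on which construct's calls brought a peak into the table. At the deposited scaling, the 2622 far peaks not listed for KLF3 held 0 of the peaks lower in ΔDL. They held 38 of those lower in DBD and 1686 of those higher in ΔDL. The part of this listing in the shares was not tested. No test was made on these counts, since replicates were combined in the heights.

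The table names the constructs for which each peak was listed. Every far peak listed for a construct was called in both of its replicate lists. The reverse did not always hold, since 11 far peaks called in both ΔDL lists, 4 called in both KLF3 lists and 1 called in both DBD lists were not listed for that construct. Of the far peaks, 1710 (40.7%) were listed for ΔDL alone, 785 (18.7%) for all 3 constructs, 761 (18.1%) for ΔDL and DBD, 581 (13.8%) for KLF3 alone, 205 (4.87%) for KLF3 and ΔDL, 151 (3.59%) for DBD alone and 13 for KLF3 and DBD. Over all 22188 peaks, KLF3 alone made up 42.4%, ΔDL alone 24.8%, all 3 constructs 10.5%, KLF3 and ΔDL 10.4%, ΔDL and DBD 9.46% and DBD alone 2.09%. Thus 62.3% of far peaks were not listed for KLF3, beside 36.4% of all peaks. This does not mean that they lacked KLF3 tags, since 699 of the 1710 peaks of ΔDL alone (40.9%) and 618 of the 761 of ΔDL and DBD (81.2%) were called in a KLF3 replicate. Of these, 634 and 566 were called in KLF3 replicate 1, and 68 and 53 in replicate 2, so that most came from replicate 1. The KLF3 replicates had 5.46 and 18.1 M tags behind their scores, and replicate 2 required at least 13 tags in a peak. The label of KLF3 alone has the same limit. Of its 581 peaks, 369 (63.5%) were called in a ΔDL replicate, 26 in replicate 1 and 354 in replicate 2. ΔDL replicate 1 had 1.77 M tags behind its scores. Of the 1710 peaks of ΔDL alone, 806 (47.1%) were called in a DBD list.

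The listing divided the far peaks into classes with different sequence. In the central 200 bp, KLF words were present at 306 of the 581 peaks of KLF3 alone, or 52.7% (95% Wilson interval 48.6 to 56.7%), against 19.4% of flanks 400 to 600 bp away. They were present at 44.9% of the peaks of KLF3 and ΔDL (38.2 to 51.7%). In contrast, they were present at 8.92% of the peaks listed for all 3 constructs (7.12 to 11.1%), 12.05% of those of ΔDL alone, 9.20% of those of ΔDL and DBD and 10.6% of those of DBD alone. The flanks of these 4 classes held KLF words at 14.7, 15.1, 15.6 and 12.9%. The class of KLF3 and DBD held only 13 peaks, of which 23.1% had a KLF word against 11.5% of flanks, and is left out of what follows. Intervals cover counting error over peaks only, and peaks are not replicates. AP-1 words, the sites of Fos and Jun dimers, were present at 37.9% of the peaks of KLF3 alone (34.01 to 41.9%), against 5.08% of flanks. They were present at 22.4% of those of KLF3 and ΔDL and at between 1.32 and 4.08% of the other 4 classes. RUNX words (TGTGGTT) were present at 11.9% and TEAD words (AGGAATG, or the same word beginning with GG as GGGAATG) at 17.0% of the peaks of KLF3 alone, against 3.44 and 7.01% of those listed for all 3 constructs. The flanks of KLF3 alone held RUNX words at 4.91% and TEAD words at 8.78%. Those of the peaks of all 3 constructs held them at 3.38 and 7.64%, close to their centres. KLF and AP-1 words occurred together at 111 peaks of KLF3 alone (19.1%) and at 2 of those listed for all 3. The split was not particular to far peaks. At intergenic peaks 10 to 100 kb away, KLF words were present at 66.7% of those of KLF3 alone and 18.4% of those of all 3 constructs. The AP-1 shares there were 34.4 and 2.57%.

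**Figure D2:**
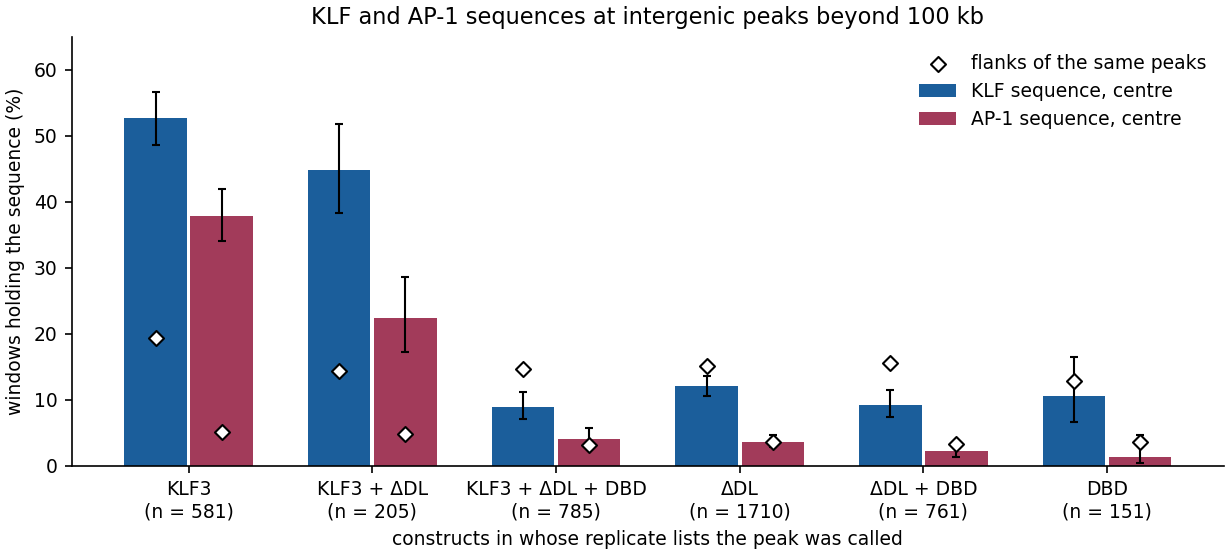
Share of far peaks with a KLF or an AP-1 word in the central 200 bp, in %, by the constructs for which the peak was listed. Bars carry 95% Wilson intervals over peaks and diamonds give the mean of both flanks. The 13 peaks of KLF3 and DBD are not drawn. For KLF words, of the 6 classes drawn only KLF3 alone and KLF3 and ΔDL stand above their flanks, at 52.7 and 44.9%.

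Base composition differed between the same classes. Mean G+C content in the central 200 bp was 45.5% for KLF3 alone and 40.1% for KLF3 and ΔDL, beside 41.9 and 40.1% in flanks. It was 34.8% for the peaks of all 3 constructs, 34.7% for ΔDL alone, 33.3% for ΔDL and DBD and 33.3% for DBD alone. In these 4 classes the flanks had 37.8, 38.2, 37.8 and 37.3%, so that the centre was more A+T-rich than its surroundings. In the 50 bp just right of the centre, G+C content was 46.3% for KLF3 alone and 29.4% for ΔDL and DBD. KLF matches there numbered 29.8 and 1.97 per 100 peaks. At intergenic peaks 10 to 100 kb away, mean G+C content was likewise 49.8% for KLF3 alone and 38.9% for all 3 constructs. The flanks of the latter had 41.6%.

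**Figure D3:**
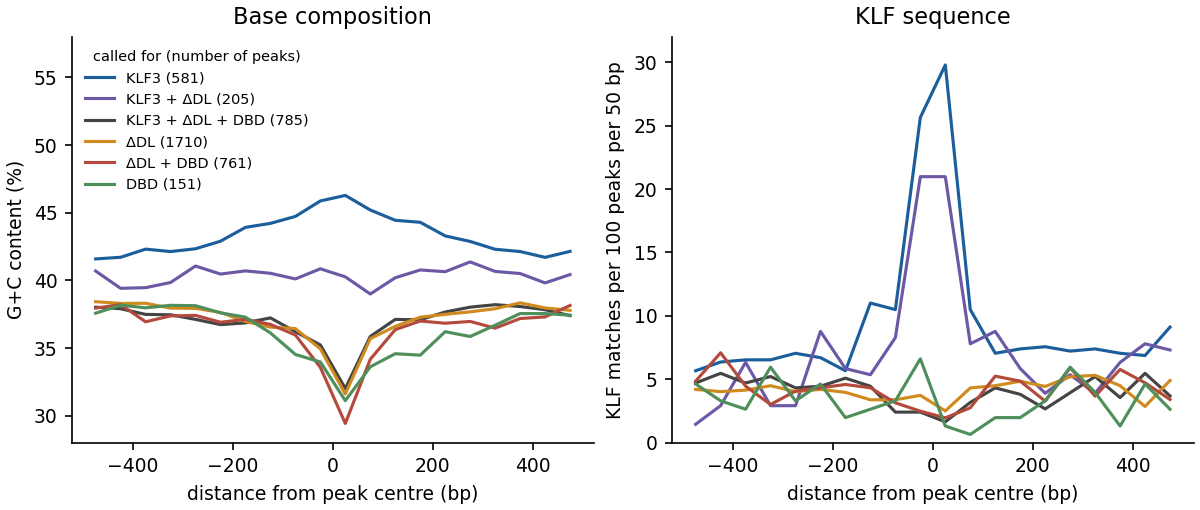
G+C content in % (left) and KLF matches per 100 peaks (right) in 50 bp bins, by distance from the peak centre in bp, for 6 classes of far peaks. KLF3 alone rises to 46.3% G+C and 29.8 matches at the centre, and ΔDL and DBD falls to 29.4% and 1.97.

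Heights within the classes are a description, since the calls that define them use the same tags. Peaks of KLF3 alone had medians of 211, 174 and 38.9 normalized tags for KLF3, ΔDL and DBD. Those of all 3 constructs had 133, 278 and 181. All 114 far peaks that were at least 2-fold lower in ΔDL were of KLF3 alone, and 662 of the 704 that were lower in DBD were of KLF3 alone or of KLF3 and ΔDL. Median KLF3 height rose with the number of KLF matches, from 86.8 normalized tags at the 3443 peaks without a match to 130 at 619 with 1 match, 223 at 107 with 2 and 260 at 12 with at least 4. Over the same peaks the ΔDL median stayed between 175 and 201, and the DBD median fell from 112 to 37.5. Of the 763 far peaks with a KLF word, 398 were of KLF3 alone or of KLF3 and ΔDL. The DBD median of these 2 classes together was 46.5 normalized tags. The part of the listing in these trends was not tested.

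Within the intergenic peaks, values differed with distance. Between 100 and 200 kb, KLF words were present at 26.3% of 1383 peaks and AP-1 words at 14.4%. Beyond 800 kb they were present at 9.58% and 3.03% of 595 peaks, close to the flanks of these peaks (12.2 and 2.94%). Median KLF3 height was 6.69 in the nearer and 6.38 in the farther bin, and median DBD height 6.58 and 6.88. Peaks of KLF3 alone made up 24.7% and 2.86%. The values at 10 to 100 kb, 41.3% with KLF words and 17.4% with AP-1 words, continued the same order.

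**Figure D4:**
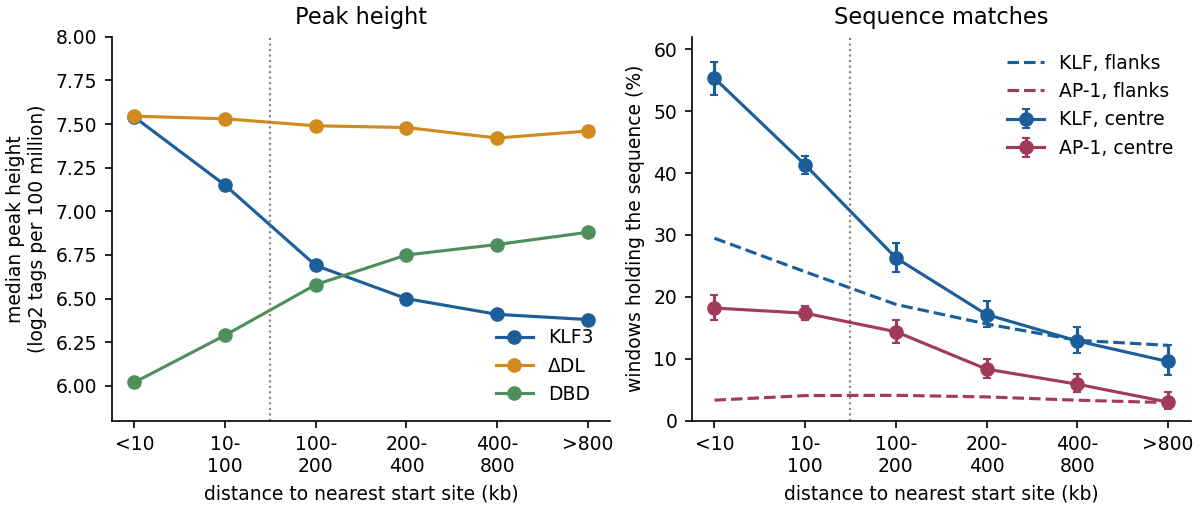
Median peak height in log2 tags per 100 M (left) and share of peaks with KLF or AP-1 words in % (right), by distance of intergenic peaks to the nearest start site in kb. The dotted line marks 100 kb, bars are 95% Wilson intervals over peaks and dashed lines are flanks. KLF words fall from 26.3% at 100 to 200 kb to 9.58% beyond 800 kb.

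The 6 replicate lists allowed far intergenic peaks to be compared with intergenic peaks within 100 kb in each list on its own. G+C content was 36.0% ± 2.74 (SD, n = 6 lists) in far and 42.1% ± 4.58 in nearer peaks, and the difference of -6.13 ± 1.97 percentage points was negative in 6 of 6 lists. A two-sided exact sign-flip permutation test gave p = 0.0312, the smallest that 6 lists allow, and 0.0446 after Benjamini-Hochberg adjustment over 10 such comparisons. KLF words were present in 17.2% ± 8.82 of far and 34.7% ± 17.8 of nearer peaks, with the same p-values and direction in 6 of 6 lists. By list the far and nearer shares were 20.3 and 45.1% in KLF3 replicate 1, and 33.1 and 62.4% in KLF3 replicate 2. They were 12.1 and 25.5% in ΔDL replicate 1, and 17.6 and 39.7% in ΔDL replicate 2. They were 10.3 and 15.8% in DBD replicate 1, and 9.99 and 19.3% in DBD replicate 2. Far peaks were thus lower in each list, and the gap was widest in the KLF3 lists. AP-1 words differed by -3.61 ± 3.08 percentage points, RUNX by -1.67 ± 0.821, TEAD by -1.14 ± 0.683, ETS (CCGGAAG) by -0.802 ± 0.544 and CTCF (GGNGGCAG) by -3.28 ± 1.21, each lower in 6 of 6 lists with adjusted p = 0.0446 in the exact test. With the limit set at 50 kb none of these 7 differences passed, although all stayed negative (adjusted exact permutation p = 0.0625, or 0.134 for AP-1 and TEAD). Over 10 comparisons, even the smallest p passes the adjustment only if at least 7 comparisons reach it. The 7 differences therefore do not pass or fail separately. The lower AP-1 share was small in DBD, at -0.0914 and -0.409 percentage points. The flanks also differed between far and nearer peaks. Over the lists their mean G+C content was 38.6 and 43.3%, and they held KLF words at 15.7 and 24.1%. RUNX words were present in 4.08 and 5.13% of flanks and TEAD words in 7.59 and 7.44%. AP-1 words were present in 3.51 and 3.97% and CTCF words in 2.61 and 5.97%. CTCF words in the centre, at 2.22 and 5.49%, were thus no more frequent than in the flanks in either class. ETS words were rare, at 0.291% of far and 1.09% of nearer peaks. In the flanks of far peaks they were present at between 0.211 and 0.640% by list. The differences between flanks were not tested. Lists of a construct come from the same clone, and lists of different constructs share sites, with 786 far peaks called in all 6. The lists are therefore not independent, which the test does not take into account.

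**Figure D5:**
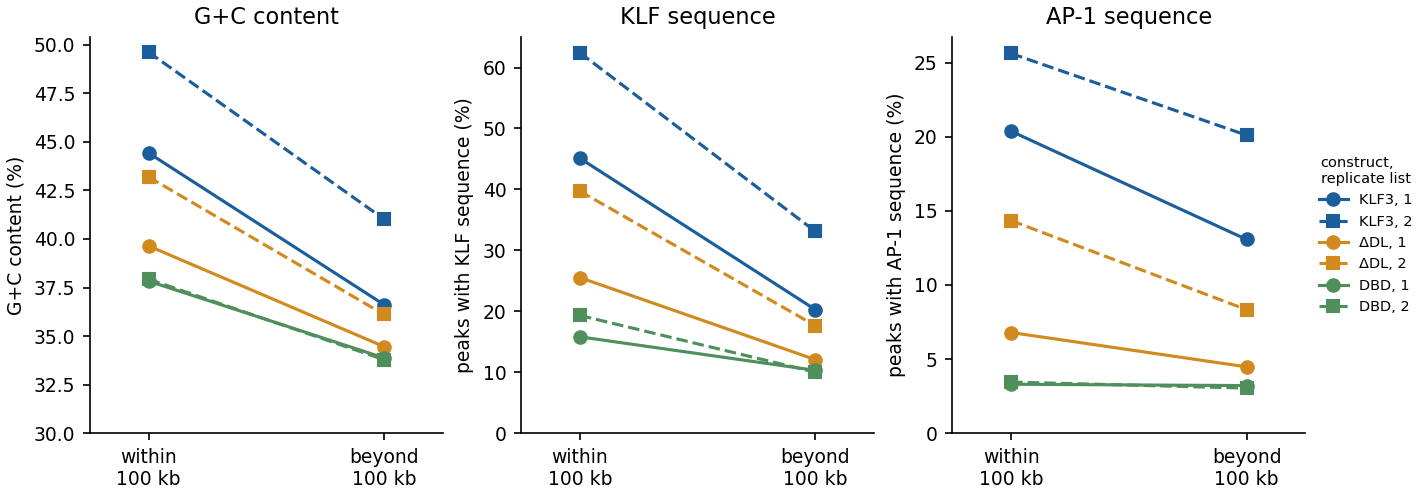
G+C content and shares of peaks with KLF and AP-1 words, in %, in intergenic peaks within and beyond 100 kb, for each of the 6 replicate lists joined by a line. Every line falls toward the far peaks, for KLF words from between 15.8 and 62.4% to between 9.99 and 33.1%.

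For 3 other measures the difference did not pass the test. The share of peaks overlapping the other replicate's list was 58.6% ± 13.9 in far and 56.1% ± 11.6 in nearer peaks (exact permutation p = 0.438, adjusted 0.438, n = 6). Median tags per peak differed by -0.667 ± 0.816 (exact permutation p = 0.250, adjusted 0.312). The share in annotated repeats was 28.1% ± 2.88 and 27.4% ± 4.94 (exact permutation p = 0.438, adjusted 0.438). LINE elements held 14.6% of far and 9.47% of nearer peaks on average over lists, and SINE elements 2.14 and 5.08%. The mean PhastCons conservation score was 0.101 in far, 0.131 in nearer and 0.246 in promoter peaks. These last values were not tested.

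Far intergenic peaks made up 16.4 and 9.17% of the KLF3 lists (mean 12.8% ± 5.12, SD, n = 2), 28.1 and 20.6% of the ΔDL lists (24.4% ± 5.25) and 33.7 and 32.5% of the DBD lists (33.1% ± 0.855). The mutants and KLF3 did not overlap, but 2 lists against 2 cannot go below p = 0.333 in an exact permutation test, which was the value in both comparisons. Lists differed in the total tags behind their scores, from 1.77 M in ΔDL replicate 1 to 18.1 M in KLF3 replicate 2. These totals were derived from the scores and are not read depth, since the paper gives more mapped reads for every immunoprecipitation. The part of the totals in these shares was not tested.

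In the replicate lists, 786 far peaks (18.7%) were called in all 6 and 858 (20.4%) in only 2. At the former, the KLF3 lists had medians of 11 and 18 tags in the called peak, the ΔDL lists 12 and 21, and the DBD lists 15 and 13.

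The peaks highest for KLF3 were called in both KLF3 lists. The highest, at chr15:60989134-60989534 and 237 kb upstream of A1bg, a plasma protein gene, reached 1351 normalized tags in KLF3, against 2077 in ΔDL and 343 in DBD. The KLF3 lists called it with 116 and 202 tags, the ΔDL lists with 34 and 160, and the DBD lists with 19 and 29. It was thus present for every construct and also the highest for ΔDL. The peak near Gm8633 (chr10:97971096-97971496) had 1090, 739 and 29.0 normalized tags and was called in 4 lists, none of them DBD. The peaks near Leprel1 (chr16:26211295-26211695) and B930025P03Rik (chr8:10664913-10665313) reached 1144 and 1128 normalized tags in KLF3. Their ΔDL heights were 1136 and 1168, and their DBD heights 94.4 and 44.6. The peak near Rdh14, a retinol dehydrogenase gene, had 1090, 861 and 58.9. Its KLF3 height tied with those near Gm8633 and 5830433M19Rik, so that these 3 share the ranks after B930025P03Rik. At the 4 peaks near Gm8633, Leprel1, B930025P03Rik and Rdh14 the log2 difference of ΔDL from KLF3 lay between -0.56 and 0.05 and that of DBD between -5.23 and -3.60. The equal-median shift made the ΔDL differences between -1.62 and -1.01. The peak near 5830433M19Rik was called in all 6 lists, with log2 differences of 0.38 for ΔDL and -3.00 for DBD.

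The peaks highest for ΔDL after A1bg were near Gm20125, 1700023F02Rik, 5830433M19Rik and Papss1, a gene of sulfate activation. They had 1448, 1438, 1418 and 1342 normalized tags for ΔDL and 1082, 690, 1090 and 709 for KLF3. The peaks highest for DBD, near Pxmp3, Arap2, Fam181b, 4932441J04Rik and Fam5c, had 781, 739, 498, 478 and 461 normalized tags for DBD. The peak near Pxmp3 (chr3:5860470-5860870) stood apart, since it was G+C-rich, with 63.0% in 200 bp, and was called only in the DBD lists, with 63 and 41 tags. Its combined heights for KLF3 and ΔDL were nevertheless 648 and 662 normalized tags. The other 4 were called in all 6 lists, and their ΔDL heights were between 666 and 1136 normalized tags. The peak near Arap2 (chr5:62954668-62955068) had 56 and 71 tags in the KLF3 lists, 66 and 80 in the ΔDL lists and 84 and 59 in the DBD lists.

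Where the higher of both heights reached 8, the largest rises in ΔDL were near 1700101O22Rik, Foxa2, a pioneer factor of endoderm, and Npr3, a natriuretic peptide receptor. Their KLF3 heights were 45.6, 72.0 and 103 normalized tags and their ΔDL heights 357, 370 and 488, or log2 differences of 2.97, 2.36 and 2.25. They were called with 5, 5 and 8 tags in ΔDL replicate 1 and with 15, 22 and 21 in replicate 2. The largest falls in ΔDL were near Prickle1, a planar polarity gene, Fam43a and 1500009L16Rik. KLF3 heights there were 350, 338 and 329 normalized tags and ΔDL heights 44.3, 48.8 and 52.7, and no ΔDL list called them. The rises and falls kept their direction under equal-median scaling, at between 1.19 and 1.91 and at -4.04, -3.85 and -3.70.

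By the deposited heights, the largest falls in DBD were near Efnb2, an ephrin ligand, Sipa1l2 and Map3k7, a kinase of TGF-β and inflammatory signalling. DBD heights were under 1 tag, so that folds are bounds against 3 tags (18.7 normalized tags). KLF3 was at least 18.3-fold, 14.3-fold and 24.3-fold higher, with 343, 267 and 455 normalized tags. KLF3 lists called these peaks with 15 and 23, 9 and 32, and 18 and 47 tags. Their rank rests on DBD heights below 1 tag and does not hold for the bounds. The fall near Gm8633, from 1090 normalized tags in KLF3 to 29.0 in DBD, was larger than each bound. The largest rises in DBD were near Dnajc24, Sp8, a zinc finger gene of the SP group, and Cdh10. Their heights were 129, 117 and 135 normalized tags for KLF3 and 288, 258 and 288 for DBD, and all 6 lists called them. With equal medians the differences were 0.74, 0.72 and 0.67, under 2-fold.

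By the RefSeq distance, the 3 farthest peaks lay 2109, 2052 and 2030 kb upstream of Pcdh17, Tyrp1 and Rag2. GENCODE transcript starts lay only 50.3, 7.70 and 39.7 kb from them. They had 49.2, 72.0 and 72.0 normalized tags for KLF3 and 102, 127 and 209 for ΔDL. The gene with the most members was Lrrc4c, a netrin-G ligand gene, with 23 over 3359 kb. Gm2516 had 21, Ptprd 20, Dsel 19 and 4930474H20Rik 16, the last tied with others. Peaks of KLF3 alone or of KLF3 and ΔDL numbered 0 of 23 at Lrrc4c, 2 of 21 at Gm2516 and 1 of 20 at Ptprd. KLF words were present at 4, 1 and 0 of them, and mean G+C content was between 29.8 and 35.0% over the 5 genes.

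Nearest-gene names were counted in 4 lists of genes. Of 47 mesenchymal transcription factor genes, 17 were nearest to 39 members (0.927% of far peaks, against 0.527% of all peaks). DBD was at least 2-fold lower at 13 of these and higher at 4, beside 16.7 and 6.68% of far peaks and 52.6 and 3.27% of all peaks. ΔDL was lower at 3 and higher at 13, beside 2.71 and 52.7% of far peaks and 14.8 and 28.8% of all peaks. A peak 188 kb from Runx2, the osteoblast regulator (chr17:44684918-44685318), had 455, 251 and 25.3 normalized tags for KLF3, ΔDL and DBD and both a KLF and an AP-1 word. A peak 264 kb from Twist1, a regulator of mesoderm, had 134, 246 and 130.7. Of 17 KLF genes, 6 were nearest to 16 members (0.380% of far and 0.203% of all peaks). The highest, 332 kb from Klf6 (chr13:6192785-6193185), had 982, 1113 and 48.2 normalized tags and was called in the KLF3 lists (67 and 100 tags) and the ΔDL lists (13 and 69 tags), but in no DBD list. Of 15 AP-1 genes, Jun and Maf were nearest to 6 members (0.143% of far and 0.230% of all peaks), of which 4 were lower in DBD, beside the same 16.7 and 52.6%. Of 15 regulators of adipogenesis, Gata3 and Lpin1 were nearest to 9 (0.214 and 0.140%). The highest peak near Lpin1, a phosphatidate phosphatase gene, had 375, 184 and 40.2 normalized tags, with 13 and 35 tags in the KLF3 lists.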

How the data were processed

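V5-tagged KLF3, ΔDL and DBD were mapped by ChIP-seq in 2 replicates each. A GEO record holds both replicates of a construct, which only the peak lists tell apart. Per the submitters' processing notes, reads were aligned to mm9 with Bowtie2 2.0.0 after FastQC 0.10.1, handled with SAMtools 0.1.18, and peaks were called against the paired input with HOMER 4.1. Inputs enter only through this calling.

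Heights were deposited on a log2 scale, as tags within 400 bp per 100 M, with the replicates pooled by the authors, from 23.3, 11.8 and 16.0 M tags for KLF3, ΔDL and DBD, so that 1 tag was worth 4.29, 8.45 and 6.23 normalized tags. The same interval's height in the merged lists differed from that in the table by an SD of 1.86, 3.50 and 2.50 normalized tags at far peaks. Scores of the replicate lists, a signal, were given by the authors as tags in the called peak per 100 M. All were whole multiples of 1 tag within 0.11, which gave the tags per peak and totals of 1.77 to 18.1 M. The deposited G+C fraction of every peak in the 6 lists matched mm9, whose sequence was used here. The deposited conservation value is a PhastCons score, as the authors averaged it over the peak. For the equal-median scaling, the median heights of the peaks listed for all 3 constructs were set equal.

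Overlap required shared bases. Words were sought on both strands in 200 bp around the centre and in flanks 400 to 600 bp away. Far and nearer intergenic peaks were compared over the 6 replicate lists by two-sided exact sign-flip permutation, with Benjamini-Hochberg adjustment, and constructs by exact permutation. Called peaks allow no count model. The peaks named were the 5 highest for each construct, the 3 farthest, and those of the 5 gene names with most members. Also named were the 3 largest rises and falls of each mutant against KLF3 by deposited height. For these the higher of the pair had a height of at least 8. The peaks given for the gene lists, not all of them the highest of their list, were added after their values were seen. The members, lists and tests were chosen with earlier results of these data known. Alternatives were other distance limits, scalings, height filters, windows and leaving out lists. Code was tested on simulated data. Software versions were Python 3.11.15, scipy 1.17.1, pysam 0.24.0, pandas 2.3.3, matplotlib 3.10.9 and numpy 2.4.6.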

Additional observations from a re-analysis of the deposited data

Results flagged for a closer look

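The share of peaks in annotated repeats differed in direction between constructs. Far intergenic peaks lay in repeats more often than nearer intergenic peaks in both KLF3 lists, by 3.12 and 3.01 percentage points, and in both ΔDL lists, by 0.415 and 2.13. They lay there less often in both DBD lists, by -1.94 and -2.37 percentage points. The mean effect was thus 5.22 percentage points larger in KLF3 than in DBD and 3.43 larger in ΔDL than in DBD. The difference between constructs was not tested. Constructs hold 2 lists each, too few for a search for single lists that stand apart.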

How the results depend on the processing

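With equal medians, ΔDL was at least 2-fold lower at 497 far peaks and higher at 29, DBD was higher at 35, and the median log2 differences became -0.04 for ΔDL and -0.03 for DBD, against 1.02 and 0.39. With a limit of 50 kb, 239 peaks were lower in ΔDL and 1284 in DBD, the medians were 0.98 and 0.33, and the shares in the KLF3, ΔDL and DBD lists 18.7, 31.6 and 41.2%. With 200 kb, 43 and 296 peaks were lower, the medians were 1.06 and 0.43, and the ΔDL and DBD shares 16.9 and 24.1%. Requiring a height of at least 7.5 left 2189 peaks for ΔDL, of which 1176 (53.7%) were higher, and 986 for DBD, of which 19 (1.93%) were higher, with a DBD median of -1.36. At 1.5-fold, 215 were lower and 3387 higher in ΔDL, and 1324 higher in DBD. In the 8105 highest peaks of each list, the KLF3 share was 7.41%. Without either replicate, shares ranged from 9.17 to 16.4% for KLF3, 20.6 to 28.1% for ΔDL and 32.5 to 33.7% for DBD.

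With a limit of 50 kb, the far-minus-nearer differences in G+C content and in KLF, AP-1, RUNX, TEAD, ETS and CTCF words were -5.63, -16.1, -2.84, -1.68, -0.582, -0.792 and -3.09 percentage points and no longer passed (adjusted exact permutation p of 0.0625, or 0.134 for AP-1 and TEAD), and the repeat difference turned to -0.159. Leaving out a list leaves 5, for which the exact permutation test cannot go below p = 0.0625. The differences then ranged from -6.56 to -5.64, -19.8 to -15.0, -4.31 to -2.87, -1.93 to -1.49, -1.28 to -0.931, -0.923 to -0.628 and -3.59 to -2.90, all in the same direction. The ΔDL difference at the Pcdh17 peak turned from 1.05 to -0.01 with equal medians. The causes were not tested. Heights could not be recomputed without a replicate, since replicates are combined in them. No paired analysis was possible because the samples' labels carry no replicate numbers that tie a list of one construct to a list of another. Only far and nearer peaks of the same list were paired, by the sign-flip test. Heights under 3 tags were left as bounds, and 94 far peaks were under this limit for DBD and 9 for ΔDL.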
